A study of Homo sapiens with 24 samples.

Results

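MT2A, MT1X, MT1E and MT1F are human metallothionein genes, and their RNA levels are described here in 4 small-cell lung cancer lines with and without lurbinectedin. The 4 genes were chosen by their measured levels and responses in these data, and all 4 of them were found among the 16796 genes that at least 1 of the deposited tables lists. Lurbinectedin is an alkylating drug that binds DNA in the minor groove and blocks transcription. H187 and H209 (called ISL1 high by the study) and H82 and SHP-77 (called ISL1 low) were each given 0.1 nM lurbinectedin or the DMSO vehicle for 24 h, in 3 biological replicates per group, which gives 8 groups and 24 samples. None of the groups carries an engineered allele. Each class holds 2 cell lines, so a difference between the classes and a difference between those particular lines cannot be told apart. ISL1 is a homeodomain protein that shapes motor neuron and pancreatic islet identity. Comparing the drug effects of the classes asks whether lines that differ in it differ in their response to the drug. A separate comparison sets the treated libraries of the classes side by side. It describes levels under the drug and not a response.

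Metallothioneins are small cysteine-rich proteins that bind zinc, copper and cadmium through their thiol groups, buffer free zinc and react with oxidants. Their genes lie side by side on the long arm of chromosome 16. When zinc rises, the zinc-finger factor MTF1 binds metal response elements in their promoters and switches them on, and MT2A is also a classical target of the glucocorticoid receptor. MT2A and the MT1 genes are made in many tissues, MT3 is best known from brain and MT4 from squamous epithelium. In tumour cells, metallothioneins have been studied for their link to tolerance of platinum and other reactive drugs.

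All 4 genes code for proteins of the same length, and their coding sequences are shown because they are so alike that reads can be hard to assign. Each was read from the GENCODE 29 transcript numbered 201, has 186 bases with its stop codon, and is printed with its cysteine codons (TGC or TGT) in capitals.
MT2A: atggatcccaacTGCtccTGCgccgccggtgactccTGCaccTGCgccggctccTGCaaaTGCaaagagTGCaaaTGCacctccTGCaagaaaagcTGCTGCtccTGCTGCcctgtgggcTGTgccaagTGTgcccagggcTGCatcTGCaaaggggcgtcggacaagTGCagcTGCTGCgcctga
MT1X: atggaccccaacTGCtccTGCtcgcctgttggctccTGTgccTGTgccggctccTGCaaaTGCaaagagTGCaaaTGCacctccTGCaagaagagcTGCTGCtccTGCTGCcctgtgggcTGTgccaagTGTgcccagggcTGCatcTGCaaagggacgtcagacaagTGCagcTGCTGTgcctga
MT1E: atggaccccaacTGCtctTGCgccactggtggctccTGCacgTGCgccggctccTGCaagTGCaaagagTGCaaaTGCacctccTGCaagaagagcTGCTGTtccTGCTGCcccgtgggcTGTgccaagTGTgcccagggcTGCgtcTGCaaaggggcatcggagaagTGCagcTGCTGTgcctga
MT1F: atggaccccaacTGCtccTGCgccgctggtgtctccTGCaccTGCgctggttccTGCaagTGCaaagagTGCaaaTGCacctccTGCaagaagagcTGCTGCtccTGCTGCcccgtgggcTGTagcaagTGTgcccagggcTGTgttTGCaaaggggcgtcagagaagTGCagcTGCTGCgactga
Each reading frame has 61 codons, of which 20 code for cysteine. Identity between pairs of these sequences ran from 88.7% for MT1X with MT1F to 92.5% for MT2A with MT1E and with MT1X. Over the whole transcripts, 16% of the 50-base stretches of MT1X occur also in a transcript of another metallothionein gene. The shares were 5.34% for MT1E, 4.88% for MT2A and 3.59% for MT1F, and at 100 bases no stretch of any of the 4 was shared. These transcripts have 450 (MT1X), 704 (MT1E), 786 (MT2A) and 690 (MT1F) bases. The gene lengths deposited with the counts are 404, 507, 452 and 483 bases in the same order, so the shares of the counted stretches can differ. Read length and the counting of reads that match several genes are not given in the sources used here. A count of any of these genes can therefore include or lose reads of a near copy, by these transcripts MT1X most of all.

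RefSeq (GRCh38.p14) promoter sequence matched 2 of the 4 genes, and the 250 bases before their starts are shown because these promoters hold the elements through which metals act. Capitals mark the core of the metal response element, TGCACNC or TGCGCNC, on either strand (on the printed strand the reverse reads GNGTGCA or GNGCGCA).
MT2A promoter, chr16:56608334-56608583, plus strand: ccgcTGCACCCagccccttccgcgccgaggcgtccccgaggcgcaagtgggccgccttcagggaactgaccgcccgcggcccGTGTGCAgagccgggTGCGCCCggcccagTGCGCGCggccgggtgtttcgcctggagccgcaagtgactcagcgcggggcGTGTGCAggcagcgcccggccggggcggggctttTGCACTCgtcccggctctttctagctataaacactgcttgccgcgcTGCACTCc
MT1X promoter, chr16:56682220-56682469, plus strand: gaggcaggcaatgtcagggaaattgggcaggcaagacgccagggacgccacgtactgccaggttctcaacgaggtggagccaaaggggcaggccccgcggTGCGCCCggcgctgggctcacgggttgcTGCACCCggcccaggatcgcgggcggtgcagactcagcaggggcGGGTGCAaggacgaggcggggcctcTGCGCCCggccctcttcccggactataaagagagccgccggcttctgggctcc
The MT2A window held 7 such cores and the MT1X window 4. Of 27305 RefSeq promoters cut to the same length, 24.3% held at least 1 core, 0.381% held at least 4 and 0.033% held at least 7. Each of the 2 windows also had 1 TATA box (TATAAA, found in 11.4% of promoters) and 2 GC boxes (GGGCGG, found in 41.3%), counted on both strands. 1 of these boxes overlapped a metal response core in MT1X and 0 did in MT2A. The gene model of the deposited tables starts 51 bases earlier than RefSeq for MT2A, and at the same base for MT1X. Such matches describe the letters and do not show that a factor is bound.

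The libraries were deep, with 24226553 to 36415190 counts each, over 14023 (H187), 14421 (H209), 13516 (H82) and 14190 (SHP-77) listed genes. A further table, called the class table here, holds the 12 treated libraries of all lines over 14463 genes. All 4 metallothionein genes are listed for H187, H209 and the class table, and 2 of them (MT2A and MT1X) for H82 and SHP-77. Neuroendocrine markers fitted the label in part. INSM1, SYP, NCAM1 and DLL3 were listed in every line, CHGA in none, and INSM1 averaged 13.1 CPM in H82 against 528 to 872 CPM in the other lines (CPM is the usual read count scaled to library depth, with library sizes adjusted by the TMM method). NEUROD1 was at 272 CPM in H82. Of 9 markers of fibroblasts and leukocytes, 3 were listed in each line and none averaged above 5.55 CPM. CD68 rose in H209 (2.30 CPM under lurbinectedin and 1.29 CPM under DMSO, edgeR adjusted p = 0.000846), and its part in any result was not tested.

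Lurbinectedin moved none of the 4 genes past the threshold in any line, while the lines differed strongly in which of the genes they expressed. MT2A was high in H187, H209 and SHP-77 and low in H82 under both treatments. MT1E and MT1F were high in H187 and H209 and at or near 0 in treated H82 and SHP-77. MT1X was present in all 4 lines, highest in H209.

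**Figure D1:**
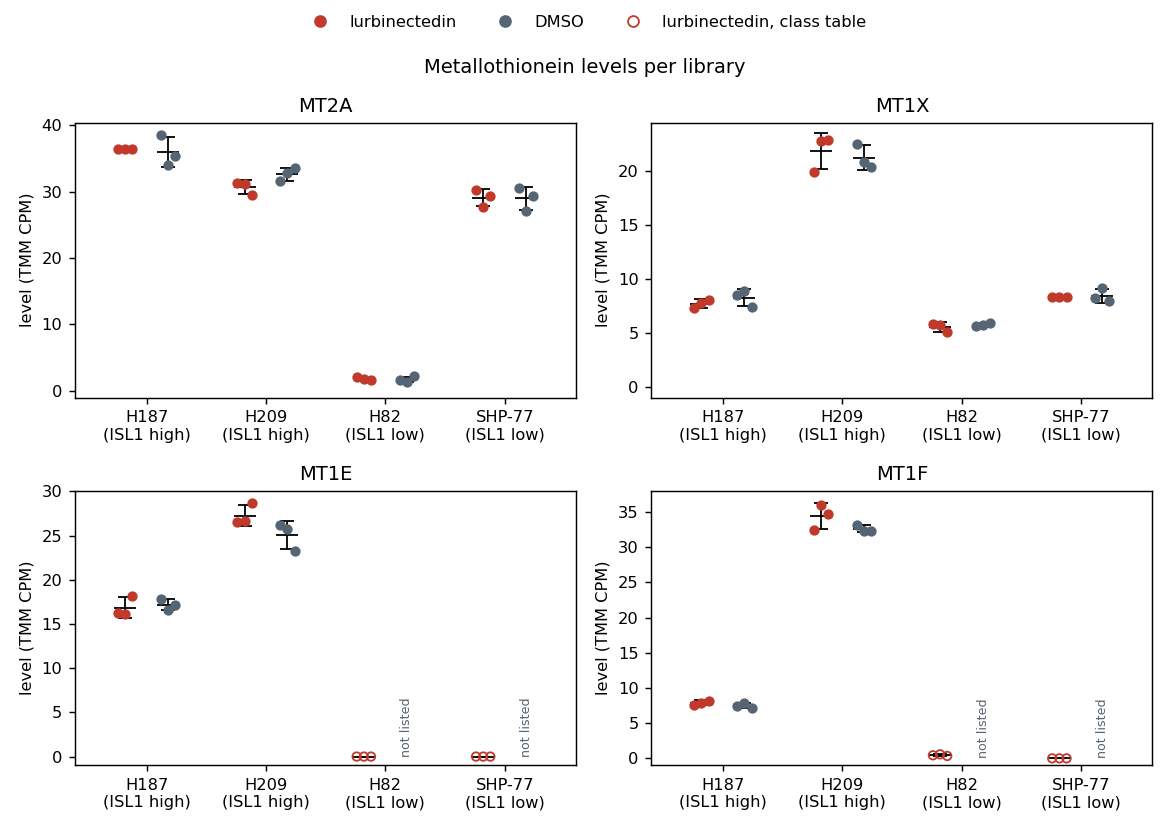
Level (TMM CPM) of each gene in every library, with 4 lines along each x axis and lurbinectedin left of DMSO. Filled points are libraries of the line tables, open points treated libraries of the class table for genes that the line table does not list, and bars are the mean and SD of 3. MT2A averaged 1.81 CPM under lurbinectedin and 1.71 CPM under DMSO in H82, far below every other line, and MT1E was at 0 in the 6 treated H82 and SHP-77 libraries.

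MT2A encodes the main MT2 isoform and was the highest of the 4 in H187 and SHP-77. In H187 it had 36.4, 36.4 and 36.4 CPM under lurbinectedin, against 38.5, 34.0 and 35.4 CPM under DMSO. The 3 treated libraries lay within the DMSO range, and the log2 fold change was 0.02 ± 0.05 (SE, n = 3 each). In H209 it had 31.4, 31.2 and 29.5 CPM under lurbinectedin, against 31.6, 32.8 and 33.5 CPM under DMSO. Here the treated libraries were all lower than the DMSO ones, by a log2 fold change of -0.09 ± 0.05 (95% interval -0.19 to 0.01), and the gene did not pass the threshold. In H82 it had 2.03, 1.73 and 1.66 CPM under lurbinectedin, against 1.66, 1.31 and 2.18 CPM under DMSO. These rest on 54 to 62 counts per treated library and 41 to 68 per DMSO library, and the log2 fold change of 0.08 ± 0.20 had the widest interval of all (-0.33 to 0.49). In SHP-77 it had 30.2, 27.7 and 29.3 CPM under lurbinectedin, against 30.6, 27.1 and 29.3 CPM under DMSO. The groups overlapped, at 0.01 ± 0.06.

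MT1X encodes an MT1 isoform that is widely made and metal-inducible. In H187 it had 7.27, 7.81 and 8.08 CPM under lurbinectedin, against 8.47, 8.90 and 7.43 CPM under DMSO. The ranges overlapped (log2 fold change -0.09 ± 0.10). In H209 it had 19.9, 22.8 and 22.9 CPM under lurbinectedin, against 22.5, 20.8 and 20.3 CPM under DMSO, which also overlapped (0.04 ± 0.06). In H82 it had 5.84, 5.74 and 5.06 CPM under lurbinectedin, against 5.63, 5.76 and 5.87 CPM under DMSO. In SHP-77 it had 8.36, 8.36 and 8.28 CPM under lurbinectedin, against 8.21, 9.13 and 7.95 CPM under DMSO. Both of these pairs overlapped, with log2 fold changes of -0.05 ± 0.10 in H82 and -0.02 ± 0.08 in SHP-77.

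MT1E encodes another metal-binding MT1 isoform. In H187 it had 16.2, 16.2 and 18.2 CPM under lurbinectedin, against 17.9, 16.6 and 17.1 CPM under DMSO. These overlapped (log2 fold change -0.03 ± 0.07). In H209 it had 26.5, 26.6 and 28.7 CPM under lurbinectedin, against 26.2, 25.7 and 23.3 CPM under DMSO. The treated libraries were all higher there, by 0.12 ± 0.06 on the log2 scale (95% interval 0.01 to 0.24), yet the gene was not called after adjustment over all genes of the line. The line tables of H82 and SHP-77 do not list it, so no drug effect is given for them. In the class table, the treated libraries had 426, 518 and 570 counts in H187 and 815, 649 and 849 counts in H209, against 0 counts in all 3 H82 and all 3 SHP-77 libraries.

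MT1F, a further MT1 isoform, had the same pattern with a larger gap between the ISL1-high lines. In H187 it had 7.53, 7.90 and 8.21 CPM under lurbinectedin, against 7.41, 7.88 and 7.12 CPM under DMSO. In H209 it had 32.4, 36.0 and 34.7 CPM under lurbinectedin, against 33.2, 32.3 and 32.3 CPM under DMSO. Both pairs overlapped, with log2 fold changes of 0.08 ± 0.10 in H187 and 0.07 ± 0.05 in H209. In the class table the treated libraries had 198, 253 and 257 counts in H187 and 996, 879 and 1029 in H209, against 12, 17 and 10 counts in H82 and 0 in each SHP-77 library. H82 therefore had a low but countable level (0.451 ± 0.117 CPM, SD, n = 3), and SHP-77 had none at a depth where 3 counts would be 0.113 CPM or less per library.

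Of these 12 drug effects, 0 passed the threshold of an edgeR adjusted p under 0.05: 0 of 4 genes in H187, 0 of 4 in H209, 0 of 2 in H82 and 0 of 2 in SHP-77. Of all genes tested, 24.9% were called for H187, 45.2% for H209, 2.92% for H82 and 5.19% for SHP-77. At an unadjusted p under 0.05 1 of the 12 would count, MT1E in H209, and DESeq2 called 0. The H82 count of 395 genes was unstable, at 1397 without DMSO replicate 3 and 93 to 195 without any other single library. The SHP-77 count of 737 was 417 without lurbinectedin replicate 1, 436 without lurbinectedin replicate 3 and 431 without DMSO replicate 2. 7 of the 12 fold changes were positive and 5 negative. The treated and DMSO ranges did not overlap for MT2A and MT1E in H209, in opposite directions. How often this held among all genes was not counted, so it does not set these genes apart. All 12 intervals (95%) lay between log2 fold changes of -0.33 and 0.49, that is between 0.795-fold and 1.4-fold. The medians of the listed genes were -0.01 (H187), 0.06 (H209), 0.01 (H82) and -0.00483 (SHP-77), beside medians of all genes of 0.00 in each line. Because the genes were selected on values of these same data, these counts describe them and are not a test.

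**Figure D2:**
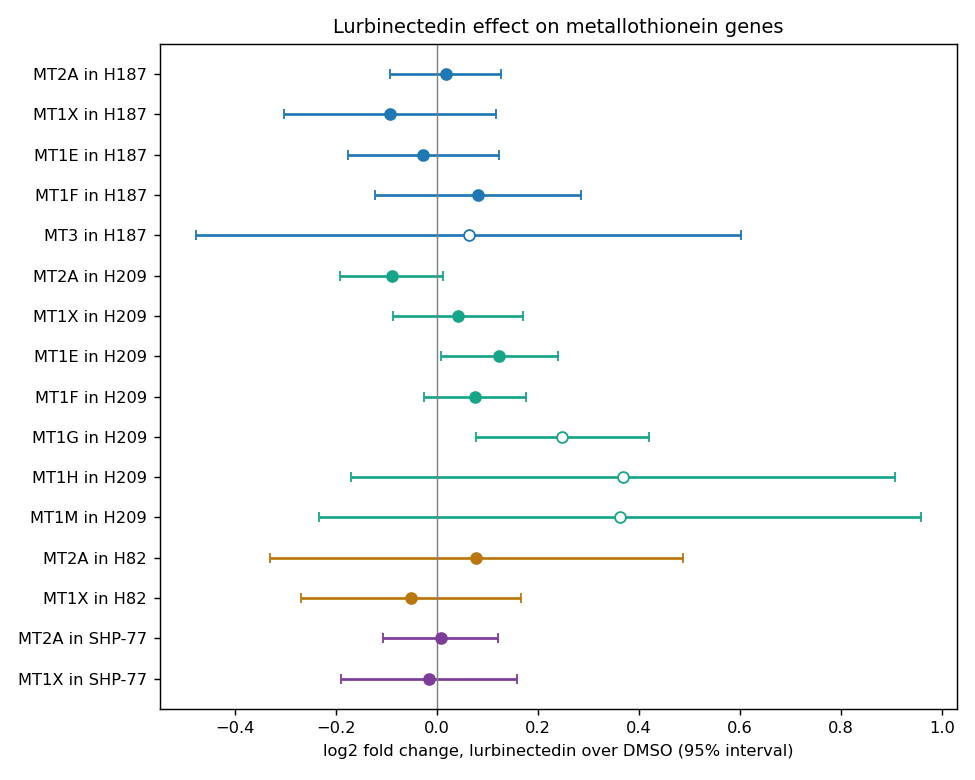
Log2 fold change of lurbinectedin over DMSO (x axis) for each listed metallothionein gene in each line, with 95% intervals; filled points are the 4 genes and open points other metallothionein genes. The 12 filled points lie between -0.09 and 0.12, and the open points of MT1G, MT1H and MT1M in H209 lie between 0.25 and 0.37.

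The difference in response, taken as the mean drug effect of the ISL1-high lines less that of the ISL1-low lines, could be fitted for MT2A and MT1X, which all 4 line tables list. It was -0.08 ± 0.10 (SE; 95% interval -0.27 to 0.12) for MT2A and 0.01 ± 0.09 (-0.17 to 0.19) for MT1X on the log2 scale. With edgeR, with DESeq2 and at an unadjusted p under 0.05, 0 of these 2 genes were called, beside 31.4% of the 11408 genes tested. All drug effects within a line and this difference share the same libraries.

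Between the lines the levels differed far more than between the treatments, most of all for MT1E and MT1F. In the treated libraries of the class table, MT1E was at least 155-fold higher in H187 than in H82 and at least 150-fold higher than in SHP-77, taking 3 counts per library as the floor of the lines at 0. For H209 the bounds were at least 236-fold over H82 and at least 228-fold over SHP-77. MT1F was 71.9-fold higher in H209 than in H82 and 17.5-fold higher in H187 than in H82, and over SHP-77 it was at least 288-fold higher in H209 and at least 70.1-fold higher in H187. Within the ISL1-high lines, H209 had 1.52 times the MT1E level and 4.11 times the MT1F level of H187, without overlap.

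MT2A and MT1X did not divide along the classes. MT2A in treated H187 was 1.26-fold above H209 and 1.25-fold above SHP-77, with no overlap, while H209 and SHP-77 overlapped (ratio 0.993). H82 stood far below, with H187 18.2-fold, H209 14.4-fold and SHP-77 14.5-fold above it. MT1X was highest in H209, 2.67-fold above H187, 2.47-fold above SHP-77 and 3.35-fold above H82. SHP-77 was 1.08-fold above H187 and H187 1.26-fold above H82, each without overlap in these treated libraries. In the line tables, each scaled on its own, the order of the means was the same under lurbinectedin and DMSO for both genes (H187, H209, SHP-77, H82 for MT2A and H209, SHP-77, H187, H82 for MT1X). When all 24 libraries were scaled together, MT2A in H209 and SHP-77 overlapped under both treatments and MT1X in SHP-77 and H187 overlapped under DMSO (ratio 1.03), so neither pair has a firm order. MT2A under lurbinectedin was slightly higher in SHP-77 than in H209 in that scaling and in the class table.

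In the fit of the class table, all 4 genes were called higher in the ISL1-high lines, beside 88.9% of genes called in either direction and 47% called higher. Since the genes were selected on levels in these data, and MT1E and MT1F passed the filter on low values through the ISL1-high lines, these calls are no test. The log2 fold change was 2.09 ± 0.05 for MT2A and 0.82 ± 0.06 for MT1X, and for both the ranges of the classes overlapped. For MT2A this mean difference holds 1 low line, H82, and 1 line at the level of H209, SHP-77. The SE covers the spread between libraries within a line, not the spread between lines of a class. The authors' deposited table gives a log2 fold change of 1.07 with an FDR of 0.235 for MT2A, which is not past the threshold, and 0.97 with an FDR of 0.0397 for MT1X. For MT1E and MT1F every ISL1-high library lay above every ISL1-low one, and the fold bounds given above take the place of a fitted value. How many of all genes separate the classes in this way was not counted, so the separation does not set these genes apart. 27 of the 14463 genes in the class table had 0 counts in all 6 treated ISL1-low libraries, and 3 of these reached 10 CPM in both ISL1-high lines. These were MT1E (16.9 CPM in H187 and 25.7 in H209), SLFN11 (94.7 CPM in H187 and 164 in H209), whose protein blocks stressed replication forks, and JHY (11.5 CPM in H187 and 11.4 in H209). This count and its cutoffs were made after the levels of MT1E had been seen. Genes at 0 in the ISL1-low lines passed the filter on low values through the ISL1-high lines. The count is therefore no test and does not set MT1E apart. Genes at 0 in the ISL1-high lines were not counted in the same way.

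The make-up of the metallothionein RNA differed from line to line when levels were set per kilobase of gene length (RPKM). In treated libraries the 4 genes summed to 149 ± 4.43 RPKM for H187, 233 ± 7.40 for H209, 20.6 ± 1.68 for H82 and 85.0 ± 2.88 for SHP-77 (SD, n = 3 each). MT2A made up 54.0% of the sum (H187), 27.5% (H209), 21.6% (H82) and 75.7% (SHP-77). MT1X made up 73.9% in H82 and between 12.8% and 24.3% in the other lines. MT1E held 22.3% in H187 and 21.8% in H209, and MT1F held 10.9% in H187, 28.8% in H209 and 4.50% in H82. H209 was the most even line, with MT1F at 67.1 ± 3.55, MT2A at 63.9 ± 2.00, MT1X at 51.0 ± 3.99 and MT1E at 50.7 ± 2.36 RPKM. There MT1F and MT2A did not differ beyond their spread, nor did MT1X and MT1E. In H187 MT2A led at 80.6 ± 0.355 RPKM, ahead of MT1E at 33.3 ± 2.42, MT1X at 19.1 ± 1.09 and MT1F at 16.3 ± 0.762. In H82 the order was turned, with MT1X at 15.2 ± 1.16 RPKM above MT2A at 4.44 ± 0.468. Among all genes of the class table, MT2A ranked at the 95.4th percentile of RPKM in H187, the 94th in H209 and the 92.9th in SHP-77, and at the 41.3rd in H82.

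**Figure D3:**
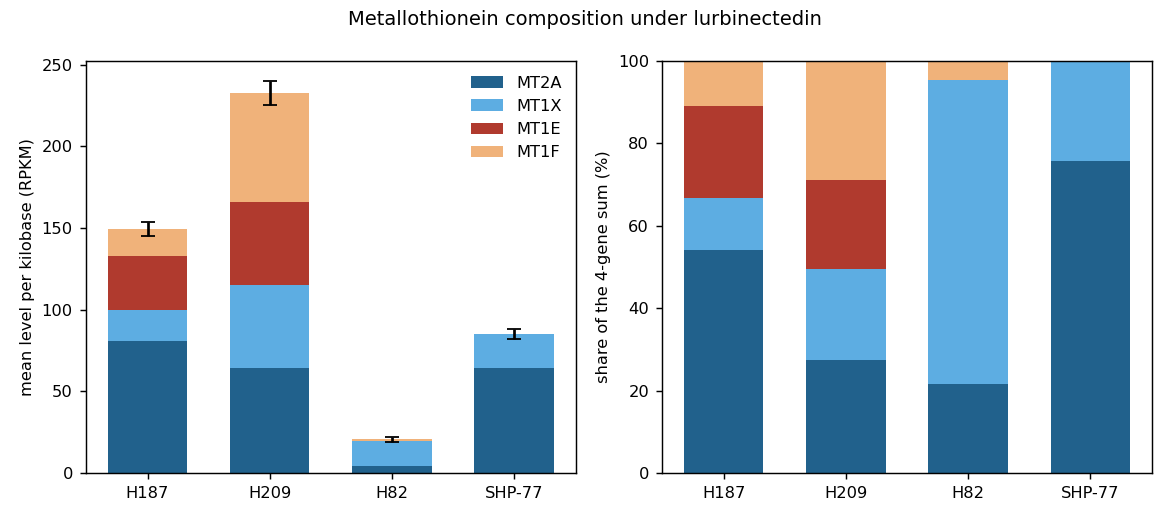
Mean RPKM of the 4 genes stacked by line (left, bars are the SD of the sum over 3 libraries) and the share of each in the sum (right), in treated libraries of the class table. H209 has all 4 genes at similar shares, SHP-77 has MT2A and MT1X only, and H82 has mostly MT1X at a low sum.

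The 4 genes stand on the plus strand of chromosome 16 within 73.94 kb, counted between the first and last start. In the hg38 coordinates of the tables MT2A runs from 56608533 to 56609497, MT1E from 56625673 to 56627113, MT1F from 56657943 to 56659303 and MT1X from 56682470 to 56684196. MT1F thus lies between MT1E, which is at 0 in H82, and MT1X, which is not. Within 200 kb on either side, the class table lists 4 other genes. NUDT21 (an mRNA 3' end processing factor), OGFOD1 (a ribosomal protein hydroxylase) and BBS2 (a subunit of the ciliary BBSome) lie before the cluster, and NUP93 (a nuclear pore protein) after it. None of them was absent from a line: under lurbinectedin the lowest was BBS2 in H187 at 6.18 RPKM. OGFOD1 rose in H209 (83.4 CPM under lurbinectedin and 55.9 CPM under DMSO; log2 fold change 0.58 ± 0.04, edgeR adjusted p = 2.73e-17), as did NUDT21 by a smaller amount (344 CPM under lurbinectedin and 318 CPM under DMSO; 0.11 ± 0.03, edgeR adjusted p = 0.00151). Between the classes NUP93 (-0.95 ± 0.03) and OGFOD1 (-0.53 ± 0.03) were lower in the ISL1-high lines, and BBS2 did not pass the threshold (-0.03 ± 0.04). NUDT21 had a fitted difference of 0.12 ± 0.02, but its class ranges overlapped. Both its lowest mean (H187, 56.0 RPKM) and its highest (H209, 73.6 RPKM) came from ISL1-high lines. The ISL1-low means lay between these, at 56.7 RPKM for SHP-77 and 62.0 RPKM for H82. This fit called 88.9% of all genes, so its calls do not set the neighbours apart.

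**Figure D4:**
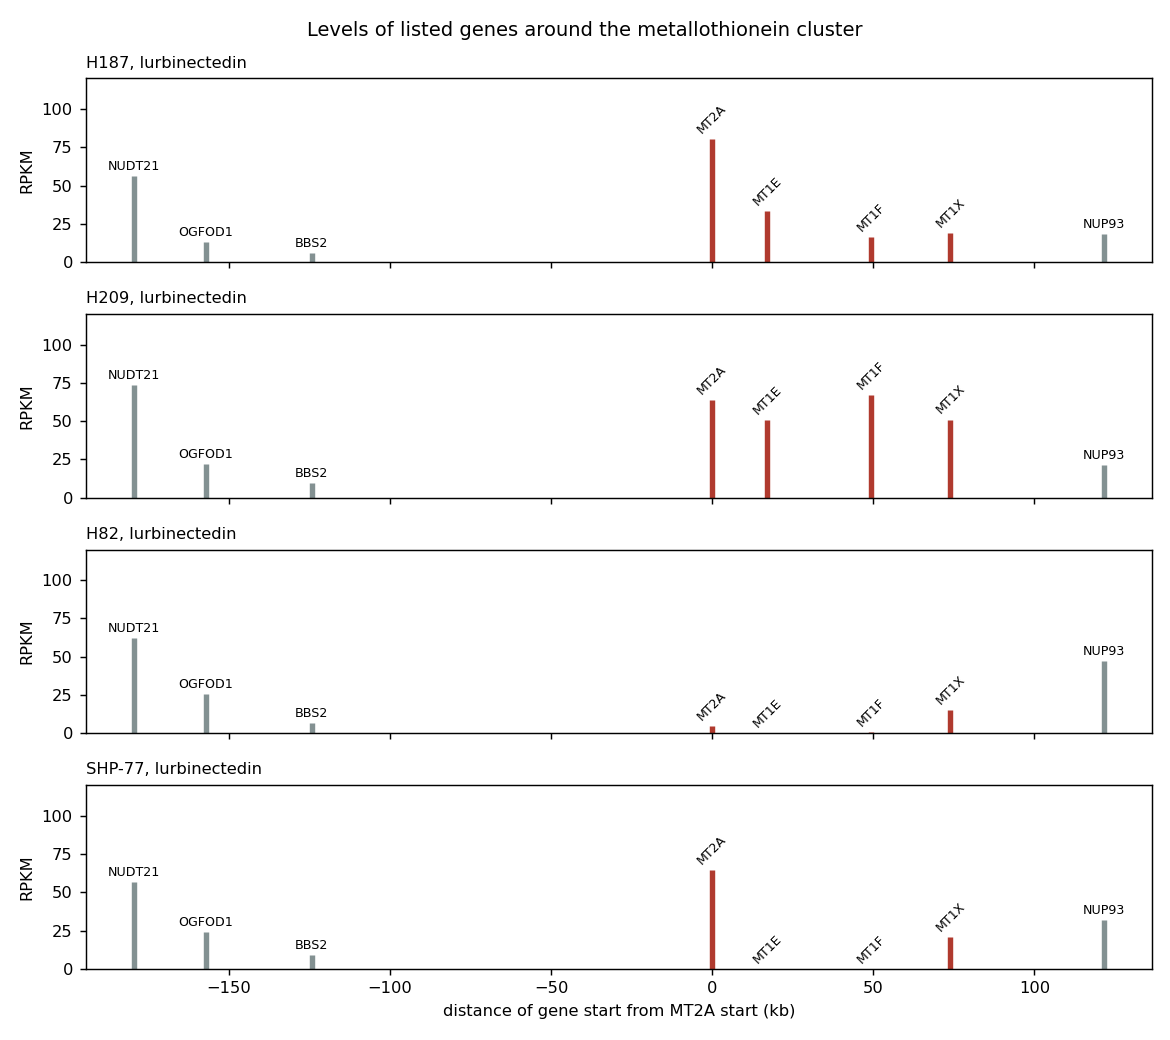
RPKM in treated libraries (y axis, mean of 3) of the genes that the class table lists around the cluster, by distance of the gene start from that of MT2A in kb, 1 row per line. The neighbours outside the cluster have signal in all 4 lines, while MT1E is at 0 in H82 and SHP-77 and MT1F at 0.933 RPKM in H82 and 0 in SHP-77.

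Of 15 other metallothionein genes looked for, 4 were listed anywhere, all in the ISL1-high lines. MT1G had 12.8, 12.8 and 12.7 CPM under lurbinectedin in H209, against 12.5, 10.4 and 9.41 CPM under DMSO. The treated libraries were all higher, and MT1G rose by 0.25 ± 0.08 on the log2 scale (edgeR adjusted p = 0.0149). This call was lost with DESeq2 and without DMSO replicate 2 or DMSO replicate 3, with an adjusted p of up to 0.149 across alternatives. Of 3 other metallothionein genes tested in H209, 1 was called, beside 45.2% of all genes called there. How often all treated libraries lay higher among all genes was not counted. Neither value sets MT1G apart. MT1H averaged 1.15 CPM under lurbinectedin and 0.890 CPM under DMSO in H209 (edgeR adjusted p = 0.274). MT1M averaged 0.934 CPM under lurbinectedin and 0.735 CPM under DMSO in H209 (edgeR adjusted p = 0.336). MT3 averaged 1.06 CPM under lurbinectedin and 1.02 CPM under DMSO in H187 (edgeR adjusted p = 0.896). None of these 3 passed the threshold.

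The counts of called genes in the lists that follow stand beside the shares of all genes called, which were 24.9% (H187), 45.2% (H209), 2.92% (H82), 5.19% (SHP-77) and 31.4% (response difference), and a list near its share is not set apart. Of the zinc sensor MTF1 and the zinc transporters of the SLC30 (export) and SLC39 (import) families, 17 were tested in H187, of which 1 rose and 4 fell, and 18 in H209, of which 4 rose and 7 fell. In H82 1 of 20 and in SHP-77 1 of 16 were called, both falls (4 in each at an unadjusted p under 0.05, and 0 in each by DESeq2). The median log2 fold changes lay between -0.04 in H209 and -0.01 in H82 and SHP-77. SLC39A11, a zinc importer also known as ZIP11, fell in every line. It had 14.2 CPM under lurbinectedin and 25.1 CPM under DMSO in H187 (-0.82 ± 0.07), and 3.03 CPM under lurbinectedin and 9.21 CPM under DMSO in H209 (-1.60 ± 0.12). The falls in H82 (-0.19 ± 0.05, edgeR adjusted p = 0.0416) and SHP-77 (-0.34 ± 0.09, edgeR adjusted p = 0.0361) were smaller. The H82 call was lost with DESeq2 or without any library other than DMSO replicate 3, and the SHP-77 call with DESeq2, with the replicate block or without any library other than lurbinectedin replicate 2. The fall was larger in the ISL1-high lines, with a response difference of -0.94 ± 0.08 on the log2 scale (edgeR adjusted p = 2.51e-11). SLC39A10, another importer, fell in H187 (-0.25 ± 0.05) and H209 (-0.34 ± 0.03). SLC30A1, the zinc exporter that MTF1 controls, rose in H209 (47.7 CPM under lurbinectedin and 40.8 CPM under DMSO; 0.23 ± 0.04, edgeR adjusted p = 3.3e-05). SLC39A1 rose in H187 (0.24 ± 0.05) and H209 (0.22 ± 0.05). MTF1 itself, named after its value was seen, had 74.0 CPM under lurbinectedin and 81.3 CPM under DMSO in H209 and fell by 0.14 on the log2 scale (edgeR adjusted p = 0.00247).

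Of 9 copper-handling genes tested in each line, 1 rose and 4 fell in H187, 1 rose and 6 fell in H209, 1 rose in H82 and 0 were called in SHP-77 (1 at an unadjusted p under 0.05 and 0 by DESeq2), with median log2 fold changes of 0.01 (H187), -0.25 (H209), 0.05 (H82) and 0.04 (SHP-77). COMMD1, a copper export factor, fell in H187 (-0.56 ± 0.08) and H209 (-0.47 ± 0.07). The copper pump ATP7A fell in H187 (-0.26 ± 0.06) and H209 (-0.29 ± 0.05), and its relative ATP7B in H187 (-0.21 ± 0.05) and H209 (-0.16 ± 0.06). COX17, which carries copper to cytochrome oxidase, fell in H187 (-0.18 ± 0.05) and H209 (-0.38 ± 0.06). The riser of this list in both lines was SLC31A1 (0.17 ± 0.05 in H187 and 0.16 ± 0.04 in H209). Its H187 call was lost without DMSO replicate 2 or lurbinectedin replicate 3. The ATP7B call in H209 was lost with DESeq2 or without any library other than DMSO replicate 1, and the COX17 call in H187 without DMSO replicate 1, lurbinectedin replicate 1 or lurbinectedin replicate 3. CCS, the copper chaperone of superoxide dismutase, rose in H82 (0.54 ± 0.15, edgeR adjusted p = 0.0487), a call lost with DESeq2 or without any library other than DMSO replicate 3. It fell in H209 (-0.25 ± 0.09, edgeR adjusted p = 0.0225), a call lost with DESeq2, with all 24 libraries in 1 fit or without DMSO replicate 3 or lurbinectedin replicate 3.

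Of 18 targets of NRF2, the oxidant-responsive factor, 1 rose and 0 fell in H187, 1 rose and 7 fell in H209, 1 rose and 1 fell in H82, and 0 were called in SHP-77 (4 at an unadjusted p under 0.05 and 0 by DESeq2). The 8 calls in H209 and the 1 in H187 are no more than the shares of all genes called there. The median log2 fold change was -0.08 in H209 and 0.01 in each other line. The riser in the ISL1-high lines was SLC7A11, the cystine importer that supplies cysteine for glutathione. It had 30.4 CPM under lurbinectedin and 20.4 CPM under DMSO in H187 (0.58 ± 0.07), and 126 CPM under lurbinectedin and 67.3 CPM under DMSO in H209 (0.90 ± 0.04). In H82 SLC7A11 fell (-0.35 ± 0.07, edgeR adjusted p = 0.0105), a call lost without lurbinectedin replicate 1 or lurbinectedin replicate 2. ME1 (-0.29 ± 0.05) and TALDO1 (-0.13 ± 0.03), enzymes of NADPH supply, fell in H209.

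The glucocorticoid receptor gene and its targets, of which MT2A is a classical one not counted here, rose under the drug wherever they passed the threshold. Of 10 tested, 5 rose in H187 and 9 in H209 and none fell, beside 24.9% and 45.2% of all genes called in either direction. Among all genes, 1708 rose and 1778 fell of 14023 in H187, and 3273 rose and 3240 fell of 14421 in H209. The list was chosen with earlier results of these data known, so these counts are no test. 0 of 10 were called in H82 and 0 of 9 in SHP-77 (0 and 2 at an unadjusted p under 0.05, and 0 in both by DESeq2), and the medians were 0.20 (H187), 0.42 (H209), 0.05 (H82) and 0.06 (SHP-77). The 2 in SHP-77 went opposite ways, PER1 up (0.15 ± 0.05) and DUSP1 down (-0.13 ± 0.04). TSC22D3, the glucocorticoid-induced leucine zipper, had 33.4 CPM under lurbinectedin and 11.5 CPM under DMSO in H209 (1.53 ± 0.06), and 9.17 CPM under lurbinectedin and 6.07 CPM under DMSO in H187 (0.59 ± 0.11). NR3C1, the receptor, rose in H209 (0.55 ± 0.04), as did the phosphatase gene DUSP1 (0.71 ± 0.06). FKBP5, a chaperone of the receptor, rose in H187 (0.30 ± 0.05) and H209 (0.20 ± 0.04), as did the clock gene PER1 (0.27 ± 0.04 in H187 and 0.47 ± 0.05 in H209). In the response difference, 7 of 9 were called, all higher in the ISL1-high lines, beside 31.4% of all genes called in either direction (1812 higher and 1768 lower of 11408). Several genes of this list also answer to other stress signals. In the same H209 libraries MT2A had a log2 fold change of -0.09 ± 0.05. Activity of the receptor was not measured, and its part in any of these values was not tested.

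**Figure D5:**
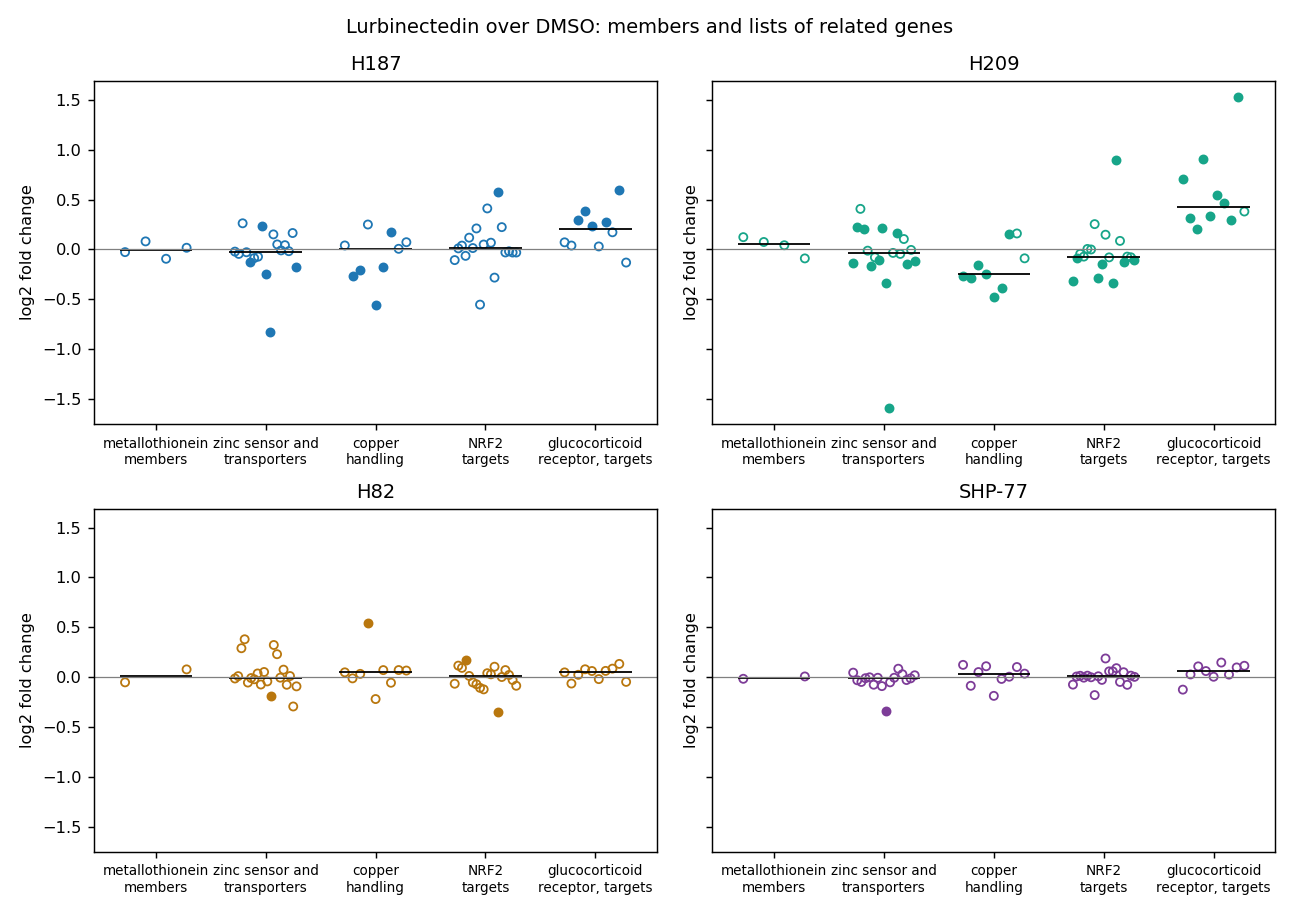
Log2 fold change of lurbinectedin over DMSO (y axis) for the 4 metallothionein genes and each gene of the 4 lists in each line; filled points passed an edgeR adjusted p under 0.05 and lines are medians. In H209 the metallothionein genes lie between -0.09 and 0.12, while SLC39A11 is at -1.60 and TSC22D3 at 1.53.

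Across the 24 libraries, the genes with levels most like MT2A were ATP11A (Pearson r = 0.997), a phospholipid flippase, ID1 (0.996), an inhibitor of helix-loop-helix factors, MCF2L (0.995), BCL2 (0.995), the inhibitor of cell death, and INPP5A (0.995), an inositol phosphatase, out of 10263 candidates. The 24 points share 4 lines and are not independent, so r is a description. All 5 were low in H82: BCL2 averaged 157 CPM for H187, 149 for H209, 0.870 for H82 and 145 for SHP-77. MT2A and MT1X had r = 0.526 over the same libraries.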

How the data were processed

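Total RNA libraries depleted of ribosomal RNA were prepared with a stranded kit, per the labels' protocols. The authors' tools were edgeR 4.2.0, Subread 2.0.3, STAR 2.7.10a and featureCounts, with hg38 as the genome, per the submitters' processing notes. The annotation and strand setting are not given in the sources used here. The authors deposited raw counts per gene and library in 5 tables, already filtered on low values. Per the file headers, the tables also hold the authors' log2 CPM, log2 fold change, a signed fold change (a score here), p-value and FDR, and gene positions and lengths (used for RPKM).

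The counts were fitted here with edgeR 4.0.16 in R 4.3.3 (filterByExpr with minimum count 10 and minimum total 15, TMM, quasi-likelihood test, Benjamini-Hochberg over all genes, threshold 0.05). Each line was fitted on its 6 libraries, the response difference on all 24 with a mean per line and treatment, and the class comparison on 12 treated libraries with a mean per line. In the response difference and the class comparison the lines are fixed, so the SE covers libraries within a line and not lines within a class. The fits were tested on simulated data. Levels are means ± SD; fold changes are log2 ± SE. Alternatives were RLE scaling, no filter, DESeq2 1.42.0, the replicate block, 1 fit of all libraries, the authors' table and leaving out each library. The 4 genes and all lists (zinc, copper, NRF2 and glucocorticoid genes, other metallothioneins, neuroendocrine markers, markers of other cells) were chosen with earlier results of these data known, and the 4 genes get no p of these fits. Of each list at most the 3 called genes with the smallest adjusted p per comparison are named, plus every listed metallothionein, genes within 200 kb and the 5 genes with the highest r (on log2 CPM with a pseudocount of 1, mean log2 CPM of at least 1). Coding sequences come from GENCODE 29. Some genes that meet this rule are counted but not reported by name here.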

Additional observations from a re-analysis of the deposited data

How the results depend on the processing

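None of the 4 metallothionein genes was called for a drug effect under any alternative that was run. Replicate numbers gave little sign of pairing, since libraries with the same number correlated at -0.157 to 0.0754 after removal of group means. The highest value was for H82 replicate 3, which matched its own number best. These low correlations do not exclude a pairing in H82. With the replicate block 0 metallothionein genes were called in any line, and the H82 count of called genes was 755 instead of 395. That count was 652 in the authors' deposited table and 643 with all 24 libraries fitted together, and 93 to 1397 without 1 library. The SHP-77 count of 737 was 451 with all 24 libraries in 1 fit and 417 to 706 without 1 library. The class count of 12858 was 5478 in the authors' deposited table, which also put MT2A at a log2 fold change of 1.07, not past the threshold. Of the 4 orders of the lines (MT2A and MT1X under each treatment), 3 were kept with 1 TMM scaling over all libraries; the exception was MT2A under lurbinectedin, where H209 and SHP-77 overlap. The causes of these differences were not tested. The spread between replicates of the 4 genes had a median coefficient of variation of 5.32%, beside 4.3% from counting alone. For MT2A in H82 it was 25.6% under DMSO, beside 13.3% from counting alone. Under lurbinectedin it was 10.9% there, beside 13.2% from counting alone.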
